A study of Arabidopsis thaliana with 18 samples.

Results

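Root cultures of Arabidopsis thaliana that had been exposed for 24 h to a compound labelled CMP were compared with cultures that had received the solvent acetone for 24 h. The comparison rests on 3 CMP arrays and 3 acetone arrays, 6 of the 18 arrays of the study. Of 22746 probe sets other than controls, 14170 lay above the 40th percentile of their array on at least 3 of these 6 arrays and were tested. They included 7616 with 1 listed gene, standing for 7562 genes, and 6249 with no gene listed, which stay unnamed here. The study also held cultures given fenclorim for 24 h, CMP for 4 h and acetone for 4 h, which are used below, and fenclorim for 4 h. All groups were wild-type roots of the Col-0 ecotype, raised without light in Gamborg's B5 at 25 °C and taken at a culture age of 14 days, with 3 arrays each. Fenclorim is a safener, a compound used to shield rice from herbicides. What CMP stands for and the dose of either compound are not given in the labels. Replicates are numbered, but nothing says that they were grown apart, so each p-value reflects the spread between arrays, which may be technical.

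Plants process foreign compounds in stages. Cytochromes P450 and reductases modify the molecule, glutathione transferases and UDP-glycosyltransferases attach glutathione or a sugar, and transporters move the conjugates into the vacuole or out of the cell. The genes of these enzymes commonly respond to safeners and to reactive electrophiles. Chemical stress in roots is also known to touch calcium signalling, protein quality control, autophagy and growth. Photosynthesis genes can be expressed in roots although their plastids are not green.

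Signals are MAS5 intensities on a linear scale, and changes are differences of mean log2 signal, CMP minus acetone unless stated otherwise, ± SE with n = 3 arrays per group. The words rose and fell are kept for genes with a limma adjusted p under 0.05. CMP and acetone arrays separated along the first principal component of the 6 arrays, which held 85.9% of the variance. Correlations between arrays were 0.972 to 0.983 within the CMP group, 0.945 to 0.970 within the acetone group, and 0.704 to 0.790 between them. The median signal per array was 32.3 to 35.2 with CMP and 40.4 to 40.9 with acetone. The mean log2 signal of the spiked poly-A controls was 6.89 to 6.94 with CMP and 5.98 to 7.10 with acetone, and the log2 difference between the 3′ and 5′ actin probe sets was 1.18 to 1.28 with CMP and 1.20 to 1.40 with acetone.

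After 24 h of CMP, 2606 probe sets were higher (18.4% of those tested) and 3750 were lower (26.5%), so 44.9% of the tested probe sets were called. Changes of at least 8-fold were more often increases: 248 probe sets were higher (1.75%) and 117 lower (0.826%) by that much. The median log2 change of all tested probe sets was -0.12, and it was -0.03 after the arrays had been centred on their medians and -0.01 after quantile normalization. Increases made up 41.0% of the calls, 48.6% after centring and 47.7% after quantile normalization. On 404 probe sets, all 3 CMP arrays and no acetone array lay above the 40th percentile, and 299 of these were called higher. The reverse held for 383, of which 342 were called lower. Because these probe sets were picked by their signals in the 2 groups, the direction of their calls was largely set in advance. The percentile was not a common threshold, at a signal of 16.9 to 18.9 on CMP arrays and 22.5 to 22.7 on acetone arrays. All arrays of one group lay above all arrays of the other for 65.4% of the tested probe sets, higher with CMP for 27.5% and lower for 37.9%. With so many probe sets called, a gene list is read below against these shares and against the median of -0.12. Lists were matched on gene symbols, synonyms or loci, and only 1076 of the 7562 genes had a symbol other than a locus tag. A count therefore covers the members that could be matched and tested, which may be a small part of a family.

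The largest increases were found in genes whose signal was near the bottom of the scale in acetone. Among them, AT1G68620 had signals of 1127, 955 and 974 in CMP cultures, against 17.9, 18.9 and 13.8 in acetone cultures, a 60.9-fold difference (log2 change 5.93 ± 0.25, adjusted p = 1.87e-10). AT2G32190 had 1607, 1899 and 1544 with CMP and 51.3, 28.8 and 28.7 with acetone (log2 change 5.59 ± 0.24). The subtilase SBT3.3, a secreted protease linked to priming of immune responses, had 629.6, 1012 and 865 with CMP and 15.0, 19.4 and 13.5 with acetone (log2 change 5.70 ± 0.51, adjusted p = 2.86e-07). In each of these genes every CMP array lay far above every acetone array. AT3G61390, AT2G47950 and AT5G39520 rose by 6.20 ± 0.51, 5.81 ± 0.46 and 5.68 ± 0.61 from acetone signals that stayed under 18. The other 8 of the 14 largest increases started from acetone signals under 8, where the size of a log2 change is uncertain. AT2G38240 had 241, 413 and 339.9 with CMP and 2.04, 7.97 and 1.97 with acetone, a log2 change of 6.67 ± 0.69 that was 4.10 when an offset of 16 had been added to every signal. With the same offset the change was 2.92 in place of 6.60 for AT1G21550, 3.48 in place of 6.44 for AT2G23110, 2.90 in place of 5.85 for AT2G32140 and 2.89 in place of 5.84 for AT1G60750. For AT5G52770, AT2G34610 and the calcium sensor gene CML39 (AT1G76640), whose CMP signals stayed under 50, it was 1.77, 1.22 and 1.58 in place of 6.68, 5.92 and 5.65. All 14 kept their call under each alternative that was run.

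The decreases reached a similar size. EXPA8, an expansin that loosens cell walls, had 7.94, 11.7 and 2.42 with CMP and 218, 211 and 253 with acetone (log2 change -5.22 ± 0.63, or -3.40 with the offset, adjusted p = 5.49e-06). AT2G10940 was the only one of the 14 largest decreases that kept signals above 100 on every CMP array, with 114, 153 and 178 in CMP cultures, against 2419.5, 1905 and 2458 in acetone cultures (log2 change -3.95 ± 0.43). AT1G29660 had 30.5, 34.1 and 28.1 with CMP and 375, 628 and 682 with acetone (log2 change -4.14 ± 0.45). These 3 genes showed no overlap between the groups. The other 11 decreases ran from -4.89 for AT4G28780 to -3.96 for AT3G42800, with CMP signals under 17. With the offset their changes lay between -2.77 for AT5G50335 and -1.23 for AT3G42800.

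**Figure D1:**
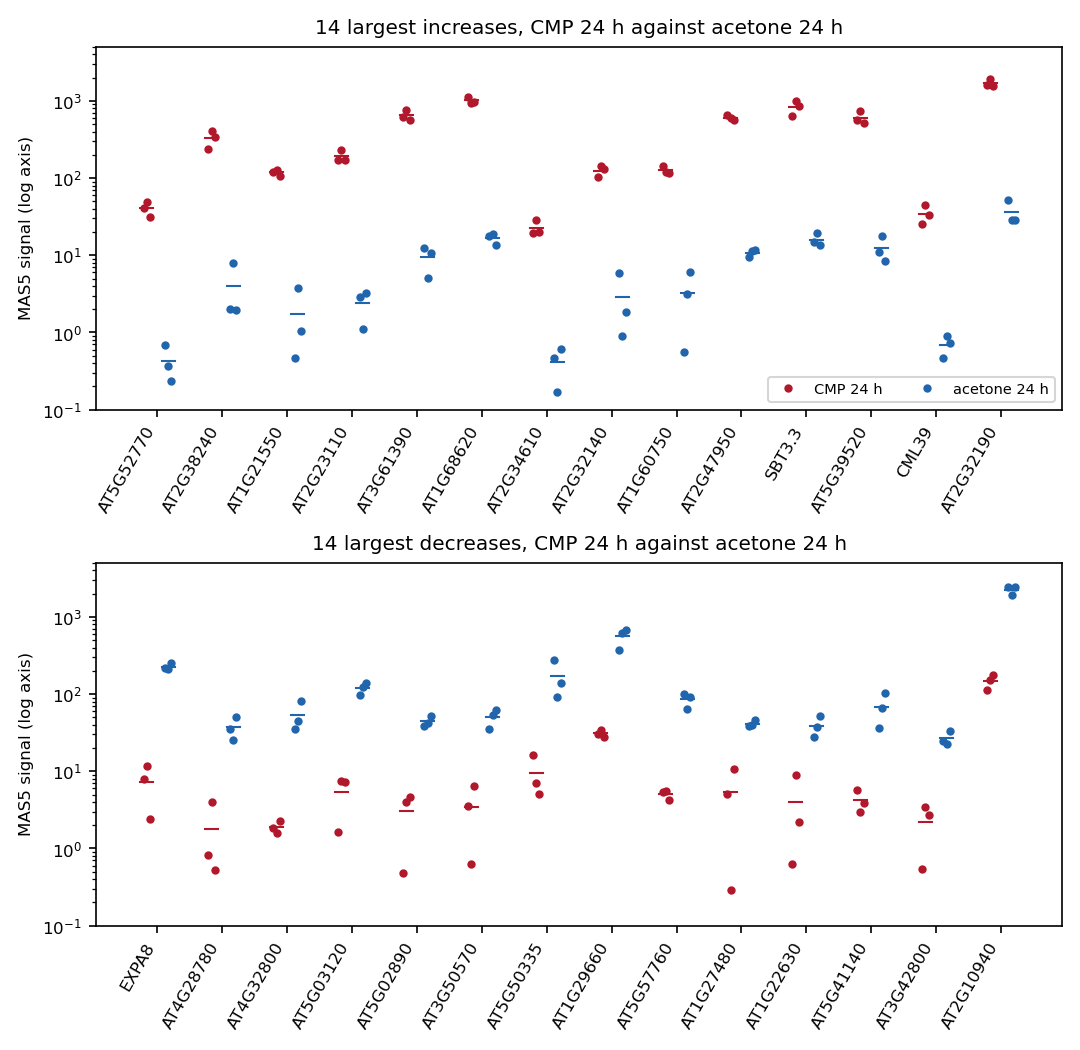
MAS5 signal (vertical, log axis) of the 14 genes with the largest increases (upper panel) and the 14 with the largest decreases (lower panel). Each point is 1 array, CMP 24 h in red to the left of acetone 24 h in blue, and bars are means of 3 arrays. In no gene did the groups overlap, and most genes of either panel lay under a signal of 20 in the group where they were lower.

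Among the enzymes of detoxification, those of sugar conjugation rose more often than they fell. Of 31 tested UDP-glycosyltransferases 12 rose and 6 fell, with a median log2 change of 0.33, beside -0.12 for all tested probe sets. Over the alternatives that were run, 8 to 16 were higher and 3 to 7 lower. UGT87A2 had 591, 640.0 and 579 with CMP and 139, 138 and 112 with acetone, a 4.67-fold increase (log2 change 2.22 ± 0.21, adjusted p = 4.62e-07). UGT72E2, which glucosylates monolignols, had 825, 588 and 698 with CMP and 209.6, 139.7 and 70.1 with acetone (log2 change 2.46 ± 0.46). UGT73B5 had 138, 131 and 119 with CMP and 28.7, 16.1 and 17.4 with acetone (log2 change 2.69 ± 0.30). All CMP arrays lay above all acetone arrays for these 3 genes. The largest change of the family was that of UGT73D1, at 4.53 ± 0.70. UGT71B6, which glucosylates abscisic acid, UGT73B4 and UGT74F1, which glucosylates salicylic acid, rose by 4.33 ± 0.86, 3.81 ± 0.74 and 3.69 ± 0.48 from signals under 15, and with the offset by 1.58, 2.25 and 1.35. The flavonol rhamnosyltransferase UGT78D1 went the other way, with 11.6, 16.8 and 13.3 in CMP cultures, against 49.8, 44.9 and 60.6 in acetone cultures (log2 change -1.90 ± 0.40, or -1.18 with the offset).

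Tau class glutathione transferases went both ways at 24 h. Of 8 tested members of this plant-specific class, 1 was higher and 2 were lower. Over all tested probe sets 18.4% were called higher and 26.5% lower. GSTU18, the second lower gene, fell by 0.75 ± 0.25, a call that was lost under median centring, under quantile normalization and without CMP replicate 1 or 3 or acetone replicate 3 (adjusted p up to 0.0867). GSTU20 fell, with 63.1, 100.4 and 86.2 in CMP cultures, against 369, 399 and 487 in acetone cultures (log2 change -2.35 ± 0.41, adjusted p = 0.00022). GSTU25 had 38.0, 37.7 and 24.3 with CMP and 17.5, 13.4 and 5.02 with acetone (log2 change 1.63 ± 0.57, or 0.83 with the offset, adjusted p = 0.0272), and its call was lost when CMP replicate 1 or 2 or acetone replicate 3 was left out, with an adjusted p of up to 0.157. Of 10 cytochromes P450, 3 rose and 4 fell. CYP71B6 and CYP71B24 rose by 1.89 ± 0.28 and 1.87 ± 0.27, and CYP71B34 fell by 1.51 ± 0.34.

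Both tested genes of a list for the removal of reactive carbonyls rose, as did 3 genes of redox balance, but related genes outside these lists fell. AOR, an alkenal/one oxidoreductase of plastids, fell by 1.78 ± 0.22 (adjusted p = 6.2e-06), and the aldehyde dehydrogenase genes ALDH3F1 and ALDH22A1 fell by 2.36 and 0.73, all 3 looked up after their values were seen. The call of ALDH22A1 was lost under median centring and without CMP replicate 2 or acetone replicate 1. Of 4 methionine sulfoxide reductases 1 rose and 2 fell. ALDH7B4, an aldehyde dehydrogenase induced by stress, had 2162, 2433 and 2221 with CMP and 644, 569 and 465 with acetone (log2 change 2.03 ± 0.21, adjusted p = 1.44e-06). The alkenal reductase AER, an enzyme that acts on unsaturated aldehydes and ketones, had 111, 211 and 147 with CMP and 62.7, 52.5 and 60.9 with acetone (log2 change 1.37 ± 0.31). The groups did not overlap for either gene. GRX480, a glutaredoxin of salicylate signalling, rose by 2.67 ± 0.31, the monodehydroascorbate reductase ATMDAR2 by 1.01 ± 0.15 and the glutathione reductase GR1 by 0.78 ± 0.23. Both tested organic cation transporters rose, OCT5 by 1.27 ± 0.29 and OCT4 by 1.15 ± 0.21.

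Calcium sensor genes were mostly higher. Calmodulin-like proteins bind calcium and pass its signal on, and 5 of 8 tested genes rose while 1 fell, with a median log2 change of 2.06. CML30 was the 1 that fell, by 0.50 ± 0.19, and its call was lost under 8 alternatives (adjusted p up to 0.25). CML37 had 238, 309 and 263 with CMP and 11.1, 5.48 and 7.02 with acetone, a 35.6-fold difference (log2 change 5.16 ± 0.30, adjusted p = 5.96e-09). CML38 had 239, 386 and 377 with CMP and 24.3, 32.1 and 15.8 with acetone (log2 change 3.82 ± 0.48), and CML41 rose by 3.47 ± 0.34. CML42 rose by 0.65 ± 0.20, a call that was lost without CMP replicate 3 or acetone replicate 2. The glutamate receptor-like channel gene ATGLR1.2 rose by 3.48 ± 0.31, or 2.10 with the offset, and it was the only 1 of 4 tested channel genes that was called. Subtilases were mixed, with 2 of 9 higher and 3 lower. SBT3.5 had 365, 585 and 518 with CMP and 41.6, 31.3 and 36.0 with acetone (log2 change 3.73 ± 0.22). Of 6 WRKY transcription factors, a family linked to defence, 2 rose and 1 fell. WRKY6 and WRKY22 rose by 2.43 ± 0.25 and 1.96 ± 0.19, and PUB24, a U-box ubiquitin ligase that dampens immune signalling, rose by 1.97 ± 0.16. WRKY53 did not pass the test: it had 85.8, 118 and 135 with CMP and 152, 132 and 107 with acetone, with overlapping arrays and an adjusted p of 0.648, and a 95% interval of -0.96 to 0.52 for its log2 change.

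Genes of autophagy, the pathway that encloses cell contents in vesicles and delivers them to the vacuole, rose together. Of 11 tested genes 8 rose, with a median log2 change of 1.06, and between 8 and 11 were called higher under the alternatives. ATG8H, which encodes a form of the ubiquitin-like protein ATG8 that coats the growing vesicle membrane, had 567, 767 and 576 with CMP and 98.2, 123 and 83.2 with acetone (log2 change 2.65 ± 0.36, adjusted p = 1.74e-05). APG8A had 912, 1113 and 871 with CMP and 442, 293 and 273 with acetone (log2 change 1.55 ± 0.18). AT5G66930, which encodes ATG101 of the kinase complex that starts autophagy, had 219.9, 284 and 236 with CMP and 85.1, 81.7 and 87.2 with acetone (log2 change 1.54 ± 0.21). In these 3 genes the highest acetone array lay below the lowest CMP array. The further ATG8 genes ATG8B, ATG8D, ATG8E, ATG8F and APG8H rose by between 0.77 and 1.22.

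Genes of ESCRT, the machinery that sorts membrane proteins into vesicles for breakdown in the vacuole, were listed together with vacuolar sorting genes. Of 14 tested members of this list, called the ESCRT list below, 6 were higher and 2 lower, with a median log2 change of 0.70. VPS60.1 had 359, 402 and 371 with CMP and 121, 107 and 87.0 with acetone (log2 change 1.86 ± 0.22, adjusted p = 4.15e-06). AT2G36680, which encodes VPS37-2, rose by 1.29 ± 0.16, VPS46.2 by 0.92 ± 0.14 and ELC, a ubiquitin-binding subunit, by 0.89 ± 0.18. The 2 lower members were VPS2.2 and VPS9B. VPS2.2 had 22.8, 22.7 and 22.8 in CMP cultures, against 50.2, 57.8 and 63.9 in acetone cultures (log2 change -1.33 ± 0.36). VPS9B fell by 0.55 ± 0.20, with a call that was lost under several alternatives, quantile normalization among them (adjusted p up to 0.374).

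Breakdown of branched-chain amino acids feeds electrons into the mitochondrial respiratory chain through the electron-transfer flavoprotein and is known to be used by plants short of sugar. Of 11 tested genes of this route and its neighbours 8 rose, with a median log2 change of 0.92. IVD, isovaleryl-CoA dehydrogenase, had 448, 329.9 and 410.1 with CMP and 102, 83.4 and 76.7 with acetone (log2 change 2.18 ± 0.33, adjusted p = 5.49e-05). ETFQO, the oxidoreductase that hands the electrons to ubiquinone, had 216, 254 and 214 with CMP and 50.6, 55.5 and 64.4 with acetone (log2 change 2.01 ± 0.25). CMP and acetone arrays did not overlap for either gene. MCCA and MCCB, subunits of methylcrotonyl-CoA carboxylase, rose by 1.76 ± 0.28 and 0.88 ± 0.23, and ALDH6B2, methylmalonate semialdehyde dehydrogenase, by 0.92 ± 0.17. The methionine gamma-lyase MGL rose by 1.31 ± 0.47, with an adjusted p of 0.0323 that reached 0.116 when single arrays were left out. The 1 gene that fell, BCAT4, with 188, 213 and 204 in CMP cultures, against 615, 961 and 688 in acetone cultures (log2 change -1.88 ± 0.30), encodes an aminotransferase of the methionine chain elongation that leads to glucosinolates.

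Central metabolism gave a mixed picture. Of 14 tested genes of the citric acid cycle and of ATP-citrate lyase 5 rose and 4 fell. Within citrate lyase, the cytosolic enzyme that supplies acetyl-CoA, the subunit genes ACLA-1, ACLA-2 and ACLB-1 fell by 0.91 ± 0.15, 1.02 ± 0.23 and 0.89 ± 0.15, while ACLA-3 rose by 0.78 ± 0.13. IDH-V and IDH-VI, subunits of the mitochondrial NAD-dependent isocitrate dehydrogenase, rose by 0.77 ± 0.11 and 0.71 ± 0.20. ICL, isocitrate lyase of the glyoxylate cycle, had 55.6, 47.6 and 44.6 with CMP and 8.12, 1.22 and 1.33 with acetone (log2 change 4.38 ± 1.14, or 1.75 with the offset), and NDB2, an external NAD(P)H dehydrogenase of plant mitochondria, rose by 1.05 ± 0.26.

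Of 7 tested genes of the unfolded protein response, which adjusts the folding capacity of the endoplasmic reticulum, 4 rose, and the median log2 change was 0.87. BZIP60, the factor activated by splicing during stress in that compartment, had 557, 666 and 566 with CMP and 284, 283 and 248 with acetone (log2 change 1.13 ± 0.17, adjusted p = 4.42e-05). The membrane-bound factor BZIP28 rose by 1.08 ± 0.16, the co-chaperone ATERDJ3B by 1.08 ± 0.25 and the Derlin gene DER2.1 by 0.87 ± 0.19. In each of these 4 genes the CMP arrays lay above the acetone arrays.

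Genes of growth and of the cell wall were mostly lower with CMP. In bulk cultures, fewer cells of a type and less RNA per cell cannot be told apart. Tubulins build the microtubules that guide cellulose deposition, and 6 of 7 tested tubulin genes fell, with a median log2 change of -1.62. TUB5 had 61.3, 67.2 and 69.2 with CMP and 566, 553 and 705 with acetone, a 9.18-fold decrease (log2 change -3.20 ± 0.20, adjusted p = 1.01e-08). TUB1 had 35.9, 28.8 and 30.7 with CMP and 323, 241 and 321 with acetone (log2 change -3.21 ± 0.28). TUA6, at a higher level, had 582, 519.5 and 603 with CMP and 1655, 1744 and 1844 with acetone (log2 change -1.62 ± 0.19). Each of these 3 genes was lower on every CMP array than on any acetone array. TUA1 had 187, 235 and 212 with CMP and 134, 177 and 166 with acetone (log2 change 0.41 ± 0.17, adjusted p = 0.0544), and it was called higher after centring or quantile normalization.

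Wall loosening and remodelling enzymes followed. Of 9 tested expansins 7 fell (3 to 8 over the alternatives), with a median of -1.28, and of 6 xyloglucan endotransglucosylases, which cut and rejoin wall xyloglucan, 4 fell, with a median of -2.68. XTH19 had 34.0, 21.5 and 31.7 with CMP and 309, 267 and 278 with acetone (log2 change -3.32 ± 0.33, adjusted p = 8.36e-07), and XTH16 fell by 2.88 ± 0.33. EXPA9 and EXPA15 fell by 1.29 ± 0.28 and 1.28 ± 0.30, and the expansin-like gene EXLA2 by 2.89 ± 0.85, or 1.38 with the offset. In cellulose synthesis and its relatives 6 of 8 tested genes fell. COB, an anchored protein that orients cellulose microfibrils in expanding root cells, had 253, 246 and 251 with CMP and 716, 821 and 858 with acetone (log2 change -1.67 ± 0.17), and CSLC5, a cellulose synthase-like gene of xyloglucan synthesis, fell by 2.37 ± 0.19. CSLD2 was the 1 member that rose, by 0.65 ± 0.20.

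Further families, not all of them of the wall, were also more often lower than higher. Of 14 trichome birefringence-like genes, whose family includes enzymes that acetylate wall polymers, 8 fell, with a median of -1.04, among them TBL45 with 21.9, 32.6 and 32.6 in CMP cultures, against 211, 214 and 262 in acetone cultures. Of 4 family 9 glycosyl hydrolases 3 fell, among them GH9C2 with 38.3, 27.6 and 34.4 in CMP cultures, against 269.6, 336 and 341 in acetone cultures (log2 change -3.24 ± 0.42). Of 9 IQD genes, which encode calmodulin-binding proteins of microtubules and the cell cortex, 7 fell (2 to 9 over the alternatives), including IQD30 by 1.99 ± 0.28. RALF peptides signal at the cell surface and restrain cell expansion: 4 of 7 fell, RALFL24 by 3.16 ± 0.41 and RALFL34 by 2.21 ± 0.26, and RALFL18 rose by 2.35 ± 0.53, or 1.16 with the offset. Of 14 serine carboxypeptidase-like genes 9 fell and 1 rose, scpl48 by 0.96 ± 0.17. Of 2 tested genes of phenylpropanoid and lignin synthesis 1 rose and 1 fell. The lower gene, HCT, encodes an acyltransferase of lignin synthesis. It had 242, 272 and 310.0 with CMP and 637, 713 and 626 with acetone (log2 change -1.27 ± 0.16).

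Cell division genes could be followed in a few cases. Of 6 tested cell cycle and replication genes 3 fell (1 to 6 over the alternatives). PRL, a subunit of the replicative helicase, had 34.1, 33.2 and 28.5 with CMP and 82.0, 83.7 and 86.7 with acetone (log2 change -1.40 ± 0.21, adjusted p = 5.45e-05). The mitotic kinase AUR1 and POLA3, a primase subunit, fell by 1.10 ± 0.32 and 1.07 ± 0.24. Histone H2B genes HTB1 and HTB2 fell by 1.06 ± 0.18 and 0.92 ± 0.19, whereas the linker histone HIS1-3, known to respond to drought, rose by 2.18 ± 0.63.

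**Figure D2:**
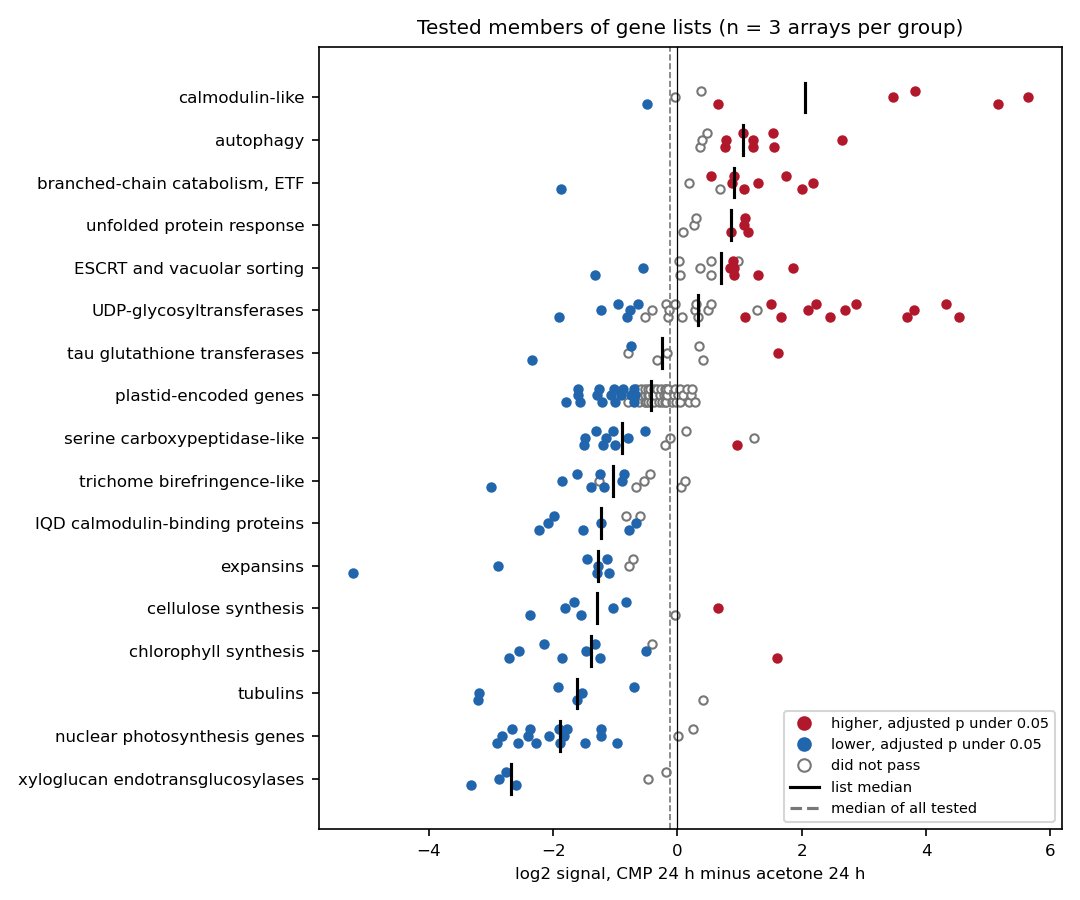
Log2 signal difference, CMP 24 h minus acetone 24 h (horizontal), of each tested member of 17 gene lists, with 3 arrays per group. Filled points passed the test (red higher, blue lower), open points did not, the black bar is the list's median and the dashed line the median of all tested probe sets, -0.12. List medians run from 2.06 for calmodulin-like genes to -2.68 for xyloglucan endotransglucosylases.

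Nuclear genes of photosynthesis were lower in CMP cultures, although the cultures had been kept in the dark. Of 18 tested genes 16 fell, with a median log2 change of -1.89, and 14 to 16 fell under the alternatives. These 18 genes were listed after their values had been seen, so their count is no independent evidence of the direction. A list of green tissue markers is not separate evidence, since 7 of its 28 tested genes are among these and 20 are encoded by the plastid. It had 15 lower members (12 to 15 when single arrays were left out) and a median of -0.83. RCA, which encodes the activase of Rubisco, had 358, 517 and 593 with CMP and 2179, 2497 and 2761 with acetone, a 5.16-fold decrease (log2 change -2.37 ± 0.23, adjusted p = 6.31e-07). LHCB4.2, a light-harvesting protein of photosystem II, had 229, 324 and 309 with CMP and 1295, 1304 and 1529.8 with acetone (log2 change -2.27 ± 0.30). PRK, phosphoribulokinase of the Calvin cycle, had 58.5, 96.0 and 118 with CMP and 555, 614 and 813 with acetone (log2 change -2.90 ± 0.29). No CMP array reached the lowest acetone array in any of these 3 genes. SBPASE, the other Calvin cycle enzyme of the list, fell by 2.83 ± 0.26, the thylakoid calcium sensing protein CaS by 2.57 ± 0.32, the photosystem I subunits PSAN and PSAE-1 by 2.07 ± 0.33 and 1.90 ± 0.30, and PSBY and PSBW of photosystem II by 1.82 ± 0.22 and 1.49 ± 0.25. ATPC1, the gamma subunit of the chloroplast ATP synthase, fell by 1.77 ± 0.21. Its paralogue ATPC2 had 44.9, 40.9 and 42.3 with CMP and 41.6, 37.2 and 29.4 with acetone, and PGRL1B had 105, 97.9 and 101 with CMP and 84.8, 105 and 116 with acetone. Neither passed the test, with 95% intervals of -0.19 to 0.71 and -0.50 to 0.51 for the log2 change. The summed signal of the 18 genes was 3628 to 5148 on CMP arrays and 15242 to 17738 on acetone arrays.

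In a list of chlorophyll and haem synthesis genes 8 of 10 tested members fell and 1 rose, with a median of -1.40. This list too was drawn up after values had been seen, so its count is no independent evidence of the direction. PORB, a light-dependent protochlorophyllide oxidoreductase, had 104, 160.2 and 176 with CMP and 789, 746 and 1003 with acetone (log2 change -2.55 ± 0.27, adjusted p = 1.43e-06). LIL3:1, a light-harvesting-like protein that binds enzymes of chlorophyll synthesis, fell by 2.71 ± 0.32, CHLI2, a subunit of magnesium chelatase, by 2.14 ± 0.27, and CHLM, the methyltransferase that follows it, by 1.46 ± 0.14. HEMA2, a glutamyl-tRNA reductase gene active in roots, had 135, 139 and 122 with CMP and 53.6, 30.7 and 50.2 with acetone, and so rose by 1.60 ± 0.25.

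Genes encoded by the plastid genome changed less evenly. Of 61 tested genes 16 fell (11 to 25 over the alternatives), with a median of -0.43, a share close to the 26.5% of all tested probe sets that were called lower. The transcript of psaJ, a photosystem I subunit, had 396, 294 and 279.6 with CMP and 1211, 860.4 and 1279 with acetone (log2 change -1.79 ± 0.23, adjusted p = 1.08e-05). The large subunit gene of Rubisco, rbcL, had 134, 122 and 109 with CMP and 327, 253 and 273 with acetone (log2 change -1.22 ± 0.23). Both were lower on every CMP array. The most abundant plastid signals differed little: atpE had 4218, 4581 and 4561 with CMP and 4449, 3883 and 4629 with acetone, with an interval of -0.24 to 0.34, and atpB had an interval of -0.38 to 0.30. Kits of the 3′ type named in the labels prime at poly(A) tails, which organelle transcripts carry only in part. Of 12 tested mitochondrial genes 2 rose, cox2 by 1.48 ± 0.33 and nad6 by 1.09 ± 0.36 (0.54 with the offset), nad6 with a call that was lost when single arrays were left out (adjusted p up to 0.0697). Signals of the root hair markers EXPA7 and EXPA18 were too low to be tested, with a sum of 10.0 to 26.2 on CMP arrays and 25.1 to 97.1 on acetone arrays. JKD, a transcription factor of the root ground tissue and meristem, fell by 1.53 ± 0.36, or 0.88 with the offset. Which cells gave the lower signals was not tested.

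**Figure D3:**
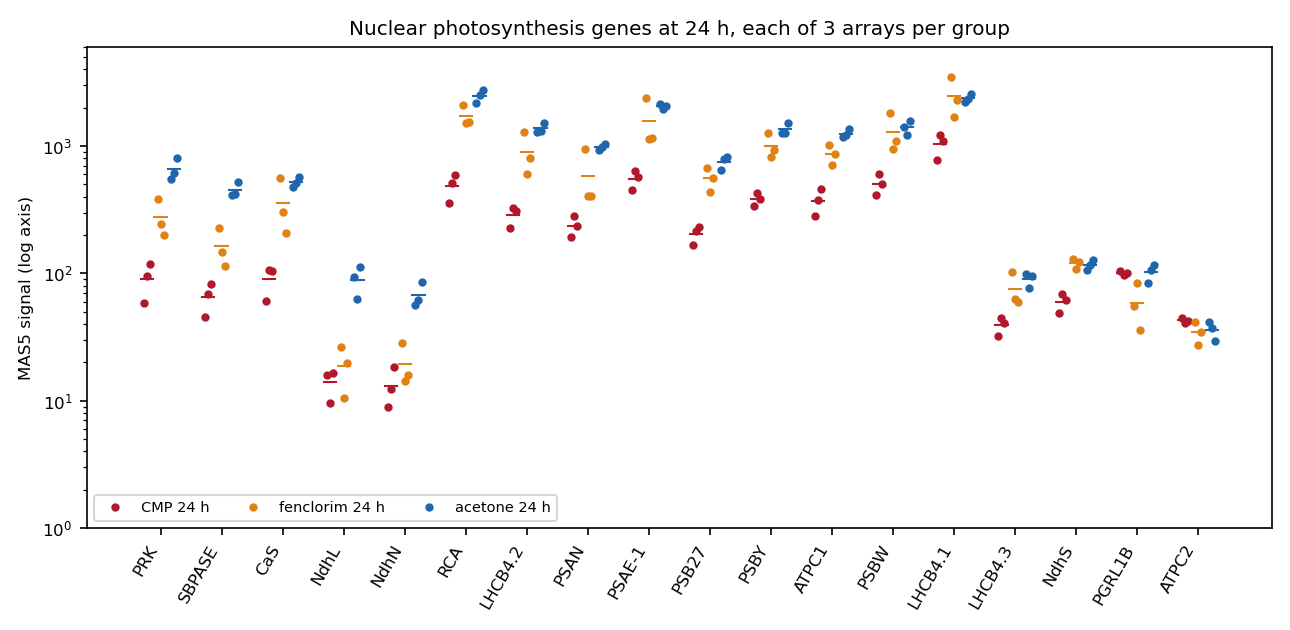
MAS5 signal (vertical, log axis) of 18 nuclear photosynthesis genes at 24 h, with CMP in red, fenclorim in orange and acetone in blue. Each point is 1 of 3 arrays per group and bars are means. CMP arrays are the lowest in most genes, fenclorim arrays spread more widely, and PGRL1B and ATPC2 show no decrease with CMP.

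CMP arrays were also set directly against fenclorim arrays of the same time. This comparison has the CMP arrays in common with the one above but no acetone array. Changes of like size with both compounds would not be called in it. Of the 14170 probe sets, 2628 were higher (18.5%) and 2015 lower (14.2%) with CMP, 32.8% in all. Of these calls 56.6% were higher with CMP, but 42.1% after the arrays had been centred on their medians (1993 higher and 2746 lower). Fenclorim arrays were less alike (correlations of 0.888 to 0.952), and replicate 2 stood apart from the others in its group. Without it 3847 probe sets were higher and 2554 lower, whereas 1532 were higher and 1294 lower without fenclorim replicate 1. Without CMP replicate 1 or 2, 1667 or 1707 were higher. The mean log2 signal of poly-A controls was 6.89 to 6.94 on CMP arrays and 7.18 to 7.95 on fenclorim arrays, that of hybridisation controls was 8.33 to 8.82 on CMP arrays and 8.72 to 9.49 on fenclorim arrays, and the part of this difference in the calls was not tested.

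The largest differences above fenclorim included a calcium sensor gene. CML39 (AT1G76640) had 25.1, 44.8 and 33.6 with CMP and 0.288, 7.59 and 0.397 with fenclorim (log2 difference 5.14 ± 1.30, or 1.43 with the offset). AT3G61390 had 627, 762 and 559 with CMP and 24.3, 69.2 and 16.6 with fenclorim (log2 difference 4.41 ± 0.51, adjusted p = 2.7e-05). AT5G66890 had 206, 301 and 218 with CMP and 6.65, 24.7 and 5.24 with fenclorim (log2 difference 4.65 ± 0.53). In all 3 genes the CMP arrays exceeded every fenclorim array. AT1G57650, AT5G52770 and AT4G19370 completed the 6 largest at 5.11, 4.74 and 4.51, or 2.55, 1.66 and 1.79 with the offset, and the call of AT5G52770 was lost without any 1 of the CMP arrays. CML37 was higher with CMP by 2.80 ± 0.30 and CML38 by 3.04 ± 0.48, and 4 of 8 calmodulin-like genes were called higher. All 4 tested glutamate receptor-like genes were higher with CMP than with fenclorim. Only 3 were called under quantile normalization and without CMP replicate 1, 2 or 3 or fenclorim replicate 1, and the fewest over all alternatives was 1. The log2 difference of ATGLR1.2 was 2.46 ± 0.31, that of GLR2.7 3.21 ± 0.41 (0.97 with the offset) and that of GLR3.3 1.43 ± 0.30 (0.88). GLR2.7 had 16.5, 20.3 and 22.1 with CMP and 1.76, 2.79 and 1.88 with fenclorim, beside 21.3, 21.6 and 26.6 with acetone, so that its fenclorim arrays were the low ones. WRKY53, not called against acetone, had 85.8, 118 and 135 with CMP and 36.7, 27.7 and 17.0 with fenclorim (log2 difference 2.10 ± 0.35, adjusted p = 0.000473).

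Genes of the autophagy, ESCRT and branched-chain lists were also higher with CMP than with fenclorim, in 6 of 11, 10 of 14 and 6 of 11 tested members. Without fenclorim replicate 2 the counts were 6, 10 and 7. The autophagy count was 4 without fenclorim replicate 1 and 3 with only the compared arrays in the fit. The ESCRT count was 6 without fenclorim replicate 1 or replicate 3. In the branched-chain list it was 5 without CMP replicate 1 or fenclorim replicate 1 or 3. VPS9B and BCAT4, the aminotransferase gene of methionine chain elongation, were lower with CMP by 0.55 ± 0.20 and 0.86 ± 0.30. Their adjusted p-values of 0.0473 and 0.0352 passed the threshold under only some of the alternatives. ATG8H had 567, 767 and 576 with CMP and 107, 251 and 89.6 with fenclorim (log2 difference 2.24 ± 0.36, adjusted p = 0.000355). VPS60.1 had 359, 402 and 371 with CMP and 81.3, 146 and 87.1 with fenclorim (log2 difference 1.90 ± 0.22), and IVD had 448, 329.9 and 410.1 with CMP and 60.4, 162 and 112 with fenclorim (log2 difference 1.93 ± 0.33). In each, fenclorim replicate 2 was the fenclorim array nearest to the CMP arrays. VPS2.2, which had fallen against acetone, had 22.8, 22.7 and 22.8 with CMP and 3.24, 9.13 and 7.89 with fenclorim (log2 difference 1.89 ± 0.36, or 0.78 with the offset, adjusted p = 0.00117), so that CMP cultures lay between the other two groups. ATG8B was not called, with an interval of -0.45 to 0.25.

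Beta-glucosidases, which release compounds from sugar conjugates, were higher with CMP than with fenclorim in 6 of 11 tested genes, with a median log2 difference of 0.92 (4 to 7 genes when single arrays were left out). Against acetone, CMP gave 3 higher and 3 lower of these 11. Fenclorim, against the same acetone arrays, gave 1 higher and 5 lower, where 43.1% of all tested probe sets were called, 14.5% higher and 28.6% lower. BGLU45, a gene of the clade that cleaves monolignol glucosides, had 68.0, 113 and 87.3 with CMP and 4.47, 26.1 and 8.05 with fenclorim (log2 difference 3.16 ± 0.61, or 1.92 with the offset). Of 5 U-box ubiquitin ligases 4 were higher with CMP, PUB23 by 1.28 ± 0.25 and PUB24 by 1.01 ± 0.16. PUB24 had 134, 135 and 162 with CMP, 67.6, 64.8 and 82.7 with fenclorim and 38.3, 40.8 and 31.5 with acetone, without overlap between any of these groups.

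UDP-glycosyltransferases were more often lower than higher with CMP, and other detoxification genes were mixed. Of 31 UDP-glycosyltransferases 13 were lower and 3 higher with CMP than with fenclorim. Without fenclorim replicate 2 the counts were 11 and 1, without CMP replicate 1 they were 7 and 0, and without CMP replicate 3 they were 8 and 0. Of 10 cytochromes P450 3 were higher with CMP and 1 lower, with 5 higher without fenclorim replicate 2 and 1 with only the compared arrays in the fit. CYP71B24 was higher by 2.54 ± 0.27. ALDH7B4 was higher by 0.77 ± 0.21, a call that was lost without fenclorim replicate 1 and with only the compared arrays. UGT74D1, which glucosylates auxin and its oxidised forms, had 88.7, 121 and 95.5 with CMP and 475, 395 and 492 with fenclorim (log2 difference -2.17 ± 0.24, adjusted p = 2.1e-05), and 104, 91.5 and 143 with acetone. AER had 111, 211 and 147 with CMP and 1307, 1106 and 927 with fenclorim (log2 difference -2.87 ± 0.31, adjusted p = 1.57e-05). OCT5 averaged 111 ± 13.1 with CMP and 707 ± 59.2 with fenclorim (SD, n = 3 each, log2 difference -2.68 ± 0.29). These were among the clearest separations, with no CMP array reaching a fenclorim array. UGT73B5 was lower by 1.57 ± 0.30 and GSTU25 by 2.24 ± 0.57. UGT73D1 and UGT71B6 were among the 3 higher ones, by 2.17 ± 0.70 and 2.56 ± 0.86 (1.18 with the offset), with adjusted p-values that reached 0.083 and 0.118 over the alternatives. UGT87A2 was not called, with an interval of -0.68 to 0.20 for its log2 difference. Sulfite reductase, SIR, had 375, 444 and 391 with CMP and 1461, 1546 and 1361 with fenclorim (log2 difference -1.85 ± 0.14, adjusted p = 1.01e-06). AT1G75280, AT5G66985, AT5G14730 and AT3G47380 completed the 6 largest differences below fenclorim, at -3.11, -3.17 (-2.08 with the offset), -2.76 and -2.54.

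Nuclear photosynthesis genes were lower with CMP than with fenclorim in 14 of 18 cases and higher in 1, PGRL1B. The count of lower genes was 14 without fenclorim replicate 2 and 12 to 14 when any single array was left out. PSAN and LHCB4.3 lost their call without CMP replicate 1 or fenclorim replicate 1, and PGRL1B lost its call without fenclorim replicate 3. Of the 28 green tissue markers 12 were lower, with a median log2 difference of -0.62, but 6 without CMP replicate 1 and 7 without fenclorim replicate 1. RCA had 358, 517 and 593 with CMP and 2116, 1511 and 1539 with fenclorim (log2 difference -1.83 ± 0.23, adjusted p = 5.37e-05). CaS had 61.2, 107 and 104 with CMP and 564, 302 and 209 with fenclorim (log2 difference -1.90 ± 0.32). NdhL and NdhN, subunits of the plastid NAD(P)H dehydrogenase complex that had fallen against acetone, were not called here, with intervals of -1.21 to 0.47 and -1.38 to 0.25. Of 7 tubulins 2 were lower with CMP than with fenclorim, TUA6 by 1.01 ± 0.19, and TUB1 and TUB5 were not called, with intervals of -0.27 to 0.90 and -0.82 to 0.04. With fenclorim against the same acetone arrays, 28.6% of all tested probe sets were called lower. Lower were 6 of 7 tubulins, 6 of 8 cellulose synthesis genes, 5 of 6 xyloglucan endotransglucosylases and 9 of 14 trichome birefringence-like genes. Also lower were 6 of 9 IQD genes, 3 of 9 expansins, 7 of 10 chlorophyll synthesis genes and 7 of 18 nuclear photosynthesis genes. Of these lists, only tubulins and cellulose synthesis had a gene called higher, 1 each. Plastid-encoded genes gave no stable count, since 10 of 61 were lower with CMP, but without fenclorim replicate 2 11 were lower and 12 higher.

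**Figure D4:**
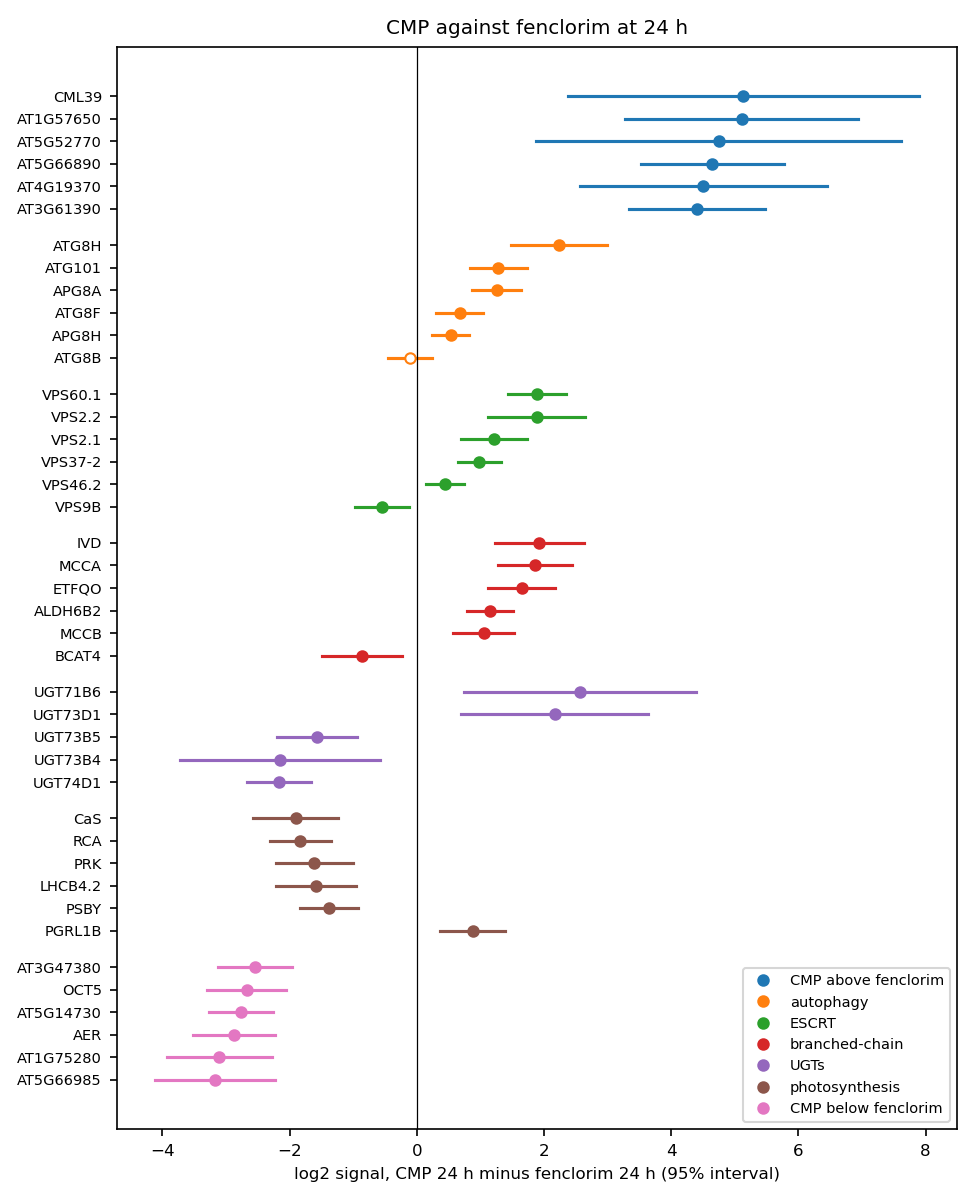
Log2 signal difference, CMP 24 h minus fenclorim 24 h (horizontal), with 95% intervals from limma and 3 arrays per group. Colours mark the 6 largest differences each way and genes of 5 lists, and the open point, ATG8B, did not pass the test. Of the genes shown, those of the autophagy, ESCRT and branched-chain lists that passed lie to the right of 0 except VPS9B and BCAT4. Photosynthesis genes lie to the left except PGRL1B.

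The CMP effect at 24 h was set against that at 4 h by testing the difference between them, (CMP minus acetone at 24 h) minus (CMP minus acetone at 4 h). It was called for 460 probe sets (3.25%), with 130 values above 0 (0.917%) and 330 below (2.33%). CMP 4 h replicate 2 stood apart from its group, with a mean log2 signal of poly-A controls of 7.59, against 6.21 and 6.33, and without it 107 values were above 0 and 236 below. The total of 460 was also reduced by over 1.5 times without CMP 24 h replicate 1, 2 or 3 (to 175, 268 and 253), acetone 24 h replicate 2 or 3 (255 and 198), CMP 4 h replicate 1 (183) or acetone 4 h replicate 3 (201). At 4 h itself, 38.3% of the tested probe sets were called, 14.3% higher and 24.1% lower with CMP than with acetone.

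Some genes rose at 24 h and were not called at 4 h. AT5G39520 had 569, 742 and 519 with CMP and 10.9, 17.9 and 8.40 with acetone at 24 h, and 17.8, 31.4 and 20.7 with CMP and 35.7, 29.5 and 49.1 with acetone at 4 h, a difference between the effects of 6.40 ± 0.86 (adjusted p = 0.00121). AT1G78780 had 281, 369 and 242 with CMP and 28.6, 20.4 and 18.6 with acetone at 24 h, and 37.0, 37.0 and 46.4 with CMP and 44.0, 23.5 and 34.1 with acetone at 4 h (difference 3.44 ± 0.34, adjusted p = 0.000112). Their groups overlapped at 4 h and not at 24 h. AT2G23110 rose at both times, by 6.44 at 24 h and 2.47 at 4 h (difference 3.97 ± 0.58, or 2.31 with the offset).

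A few detoxification genes, and some genes of other kinds, showed a smaller increase at 24 h than at 4 h. The difference was called below 0 in 2 of 31 UDP-glycosyltransferases, 2 of 8 tau glutathione transferases and 1 of 2 organic cation transporters. It was called below 0 in 0 of 10 cytochromes P450 and 0 of 2 reactive carbonyl genes, beside 2.33% of all tested probe sets. GSTU25 had 38.0, 37.7 and 24.3 with CMP and 17.5, 13.4 and 5.02 with acetone at 24 h, and 721, 1050.0 and 447 with CMP and 3.62, 4.29 and 19.7 with acetone at 4 h (difference -5.07 ± 0.80, adjusted p = 0.00362). UGT73B5 rose by 2.69 at 24 h and by 4.95 at 4 h (difference -2.26 ± 0.42, adjusted p = 0.00907). GSTU22 changed by 0.35 at 24 h, which did not pass the test, and rose by 3.16 at 4 h (difference -2.81 ± 0.59). AT2G41730 had 213, 190.3 and 189 with CMP at 24 h and 2500.4, 4279 and 2427 with CMP at 4 h, against acetone signals of 38.7, 40.4 and 55.2 at 24 h and 48.5, 39.1 and 32.5 at 4 h (difference -4.07 ± 0.67). BZIP60 and NDB2 rose at both times and less at 24 h, with differences of -1.18 ± 0.24 and -1.91 ± 0.37.

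Several nuclear photosynthesis genes changed more at 24 h. The difference between the effects was called in 9 of 18 nuclear genes, in 4 without CMP 4 h replicate 2 and in 3 to 8 when other single arrays were left out. It was called in 5 of the 28 green tissue markers (2 to 7 when single arrays were left out). RCA fell by 2.37 at 24 h and had a log2 change of -0.58 at 4 h (adjusted p = 0.0547), a difference of -1.79 ± 0.32 (adjusted p = 0.00745). SBPASE fell by 2.83 at 24 h and by 0.97 at 4 h (difference -1.86 ± 0.37). PSBY had changes of -1.82 at 24 h and -0.28 at 4 h (difference -1.54 ± 0.30). These 3 differences kept their call under each alternative that was run.

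**Figure D5:**
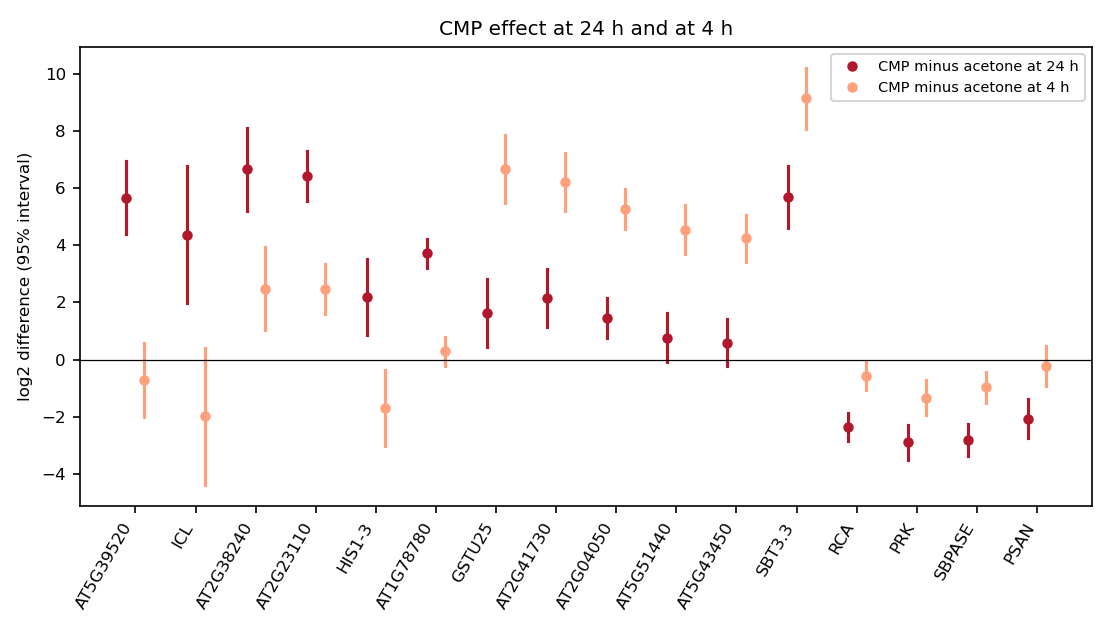
Log2 difference between CMP and acetone (vertical) at 24 h in dark red and at 4 h in light red, with 95% intervals and 3 arrays per group. The first 12 genes have the 6 largest positive and the 6 largest negative differences between the times, and the last 4 are nuclear photosynthesis genes. AT1G78780 and AT5G39520 have intervals that include 0 at 4 h and not at 24 h, and the increase of GSTU25 was smaller at 24 h.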

How the data were processed

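Per the labels' protocols, a 3′ in vitro transcription kit turned total RNA into biotinylated target, and each sample was hybridised to 1 Affymetrix ATH1 array. The authors deposited 1 linear-scale intensity per probe set, the MAS5 signal, named in the submitters' processing notes. Its scaling target is not stated in the sources used. Signals ran from 0.0102 to 8886, and the number of arrays limits the precision.

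After log2 transformation, limma 3.58.1 (R 4.3.3) estimated a mean for every group from all 18 arrays together, with an intensity trend and 12 residual degrees of freedom. Benjamini-Hochberg adjustment ran over the 14170 tested probe sets. The fit was run on simulated data in which 200 of 14170 probe sets were changed. Of these 187 were recovered with the right sign, and there were 7 false calls. Far fewer probe sets were changed there than the 44.9% called here, so the simulation does not give the error rate in these data. Figures were drawn with matplotlib 3.10.9, and tables were joined with pandas 2.3.3 in Python 3.11.15. Genes were named from the platform annotation and the RefSeq table of TAIR10.1, with 13436 of 13513 singly listed probe sets matched. The probe set with the highest mean signal stands for a gene. Of 13 genes with several called probe sets, 0 had opposite directions. No pair of arrays was identical.

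The text names the 14 largest called increases and decreases without overlap, the 6 largest differences each way in the other comparisons, a few fixed genes and members of gene lists. Members and lists were chosen with earlier results of these data known, and those of nuclear photosynthesis and chlorophyll synthesis after values had been seen. Alternatives changed the scaling, filter, offset, arrays in the fit, replicate block, trend and array weights, or left out single arrays.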

Additional observations from a re-analysis of the deposited data

Results flagged for a closer look

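The CMP effect differed between 24 h and 4 h by the test of the difference itself in 460 probe sets, and the values below are the effect at 24 h minus that at 4 h, on the log2 scale, for the named genes among them. In the positive direction they were 6.40 for AT5G39520, 6.37 for ICL, 4.19 for AT2G38240, 3.97 for AT2G23110, 3.89 for HIS1-3, 3.44 for AT1G78780, 2.08 for the jacalin-related lectin JAL22 and 1.23 for ATG101 (AT5G66930). ICL had 4 h signals of 2.49, 72.5 and 20.4 with CMP and 97.9, 89.0 and 26.4 with acetone, a wide spread within both groups, and its difference was 2.78 with an offset of 16 and no longer called (adjusted p up to 0.141 over the alternatives).

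Genes of conjugation, transport and stress with negative values were GSTU25 at -5.07, GSTU22 at -2.81, UGT73B5 at -2.26, UGT87A2 at -1.17, OCT5 at -1.65, SBT3.3 at -3.46, NDB2 at -1.91, BZIP60 at -1.18, AT2G41730 at -4.07, AT2G04050 at -3.80, AT5G51440 at -3.79, AT5G43450 at -3.65 and AT5G14730 at -2.23. All of these had risen at 4 h. With the offset SBT3.3 had -1.38, and its call was lost without CMP 24 h replicate 1.

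Growth and metabolism genes with negative values were AT4G32800 at -3.08, the pectin methylesterase gene ATPMEPCRB at -2.77, AT2G10940 at -2.44, TUB1 at -1.56, TUB5 at -1.29, GH9B7 at -1.24 and ACLA-1 at -0.79. The nuclear genes of photosynthesis were NdhL at -2.13, SBPASE at -1.86, PSAN at -1.84, RCA at -1.79, PSAE-1 at -1.64, PRK at -1.57, PSBY at -1.54, PSB27 at -1.35 and ATPC1 at -1.25. CHLM of chlorophyll synthesis had -0.87, and the plastid-encoded genes psaJ, psbH and petB had -1.48, -1.26 and -0.85. With the offset AT4G32800 had -0.85 and NdhL -1.35, and neither was called then. In every alternative that was run and tested them, calls were kept for RCA, SBPASE, PSBY, GSTU25, GSTU22, UGT73B5, BZIP60, NDB2, JAL22, ATPMEPCRB, AT5G39520, AT1G78780, AT2G23110, AT2G41730, AT2G04050, AT5G51440, AT5G43450 and AT5G14730, and lost in at least 1 for the others.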

How the results depend on the processing

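Against acetone at 24 h, no alternative moved the counts of calls by over 1.5 times. Without single arrays 2156 to 2409 probe sets were higher and 3077 to 3446 lower. With an offset of 16 the counts were 2671 and 3980, and with array weights 3800 and 5438. Of 178 called genes followed by name, 169 to 178 kept it under each alternative with the full set of probe sets, and 0 changed direction. Against fenclorim, 1598 were higher and 1219 lower with only the compared arrays in the fit, and leaving out single arrays gave 1532 to 3847 higher and 1294 to 2554 lower. Of 122 called genes followed by name, 91 to 121 kept their call. For the difference between 24 h and 4 h, 312 values lay above 0 and 633 below with only the compared arrays, 766 and 977 with array weights, and 55 to 129 and 119 to 288 without single arrays. Without CMP 24 h replicate 1 the counts were 56 and 119, the lowest below 0. Of 41 called genes 20 to 41 kept their call. Leaving out fenclorim and 4 h arrays was chosen after seeing the data. The cause of these shifts was not tested.

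Deviations of CMP and acetone arrays from their group means correlated at 0.29, -0.06 and -0.03 for arrays with the same replicate number, over the tested probe sets. For arrays with different numbers the correlations were -0.25 to 0.29. With 3 arrays per group these values cannot decide whether replicate numbers pair the arrays. With the replicate block the counts were 2522 higher and 3583 lower against acetone, 2334 and 1845 against fenclorim, and 87 and 232 for the difference between times. Signals near the bottom of the scale limit the size of a change, as the offset shows.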
